A study of Mus musculus with 10 samples.

Results

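RNA sequencing values were examined for 42 genes that mark the cells of brain blood vessels, namely 22 endothelial genes, 12 genes of the blood-brain barrier and 8 genes of mural cells, the pericytes and smooth muscle cells that wrap the vessel wall. The genes were chosen by symbol, as known markers and with earlier results of these data known, and 42 of the 42 symbols were found among the 18216 genes of the table. They were compared between the prefrontal cortex of 5 Arid1b heterozygous mice (Arid1b+/–, HT1 to HT5) and 5 wild-type mice (WT1 to WT5), all untreated C57BL/6N males at postnatal day 10, with 1 library per mouse. The product of Arid1b is a DNA-binding component of BAF (SWI/SNF), a complex that moves nucleosomes. The HT mice carry a germline allele made with CRISPR/Cas9 that truncates the protein at the start of the fifth exon. The line rests on a single edited allele, heterozygous HT sires were mated with WT females, and every cell of an HT mouse carries the mutation, so an effect within vessels cannot be told apart from an effect of another cell type on vessels. The libraries are of whole tissue, and fewer cells of a type and less RNA per cell cannot be told apart in them. Values are normalised counts, the estimated read counts of a gene divided by a scaling factor for its library.

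Endothelial cells line every vessel. In the brain they are sealed to each other by tight junctions, hold few vesicles, and carry transporters that let glucose, amino acids, lactate and lipids across while pumping drugs back into the blood. These barrier properties are induced by signals of neural tissue, among them Wnt ligands, and are kept up by pericytes and by the end-feet of astrocytes. In the mouse the vessel bed of the cortex still grows and remodels during the first postnatal weeks.

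Arid1b itself (chr17:4994332-5347656, GRCm38, plus strand, protein coding) matched the labels, with 1766.8 to 1987.2 normalised counts in the HT mice and 2662.4 to 3017.9 in the WT mice, a log2 fold change (HT minus WT) of -0.585 with a standard error (SE) of 0.048 and an adjusted p of 9.96e-05. Totals of the normalised counts were 31106330 to 32106791 per library, the sequencing depth is unknown, and errors therefore rest on the spread between mice alone. HT2 stood apart from the other libraries. Mitochondrially encoded transcripts took 8.43% of its normalised counts and 5.15% to 6.76% in the other 9 mice, and HT2 held the highest value of the 10 mice in 17.1% and the lowest in 21.8% of the 16781 genes tested. Markers of striatum, a neighbouring region, summed to 5031 to 15422 normalised counts in the HT mice and 3843 to 12226 in the WT mice, with means of 11315 and 8306. The log2 fold change was above 0 for 7 of these 8 markers, with a median of 0.54 and 0 at an unadjusted p under 0.05.

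The vascular markers were present in every library, with no member at 0 in any mouse and a lowest value of 81.2 (Ly6a in HT3). Per kilobase of exonic sequence, the mean level in WT mice was highest for the barrier gene Bsg (6489.7 normalised counts per kilobase), the pericyte gene Rgs5 (1367.5) and the tight junction gene Cldn5 (1117.4). It was lowest for the endothelial genes Emcn (31.7), Foxq1 (38.6) and Sox7 (45.3). Some of the members are not restricted to vessels. Bsg, Tjp1 and Slc7a5 are transcribed in neurons and glia as well, so their values in whole tissue are not values of the vessel wall alone.

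No member passed the test between genotypes. A gene was called when its p-value from limma, adjusted by the Benjamini-Hochberg method over the 16781 genes tested, was under 0.05. That held for 3 of all genes tested (0.0179%) and for 0 of the 42 members, with the smallest adjusted p of a member at 0.414 (Tjp1). At an unadjusted p under 0.05, 5 members were higher in HT (Tjp1, Slc2a1, Slc7a5, Foxq1 and Acta2), against 4.71% of all genes tested, and 0 were lower, against 4.52%. The 5 HT values lay above all 5 WT values for 2 members, Tjp1 and Slc7a5, against 0.703% of all genes, and below them for 0 members, against 0.918%. The log2 fold change was above 0 for 36 of the 42 members, against 48.8% of all genes, and its median was 0.11, against -0.004 over all genes. These shares depended on single mice. The number of members higher at an unadjusted p under 0.05 was 10 without HT1, 3 without HT2, 13 without HT3 and 3 without HT4, against 5.51%, 3.59%, 5.56% and 4.78% of all genes in the same fits. The number with a log2 fold change above 0 ranged from 26 to 40 when each mouse was left out in turn, against 48.1% to 49.7% of all genes.

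**Figure D1:**
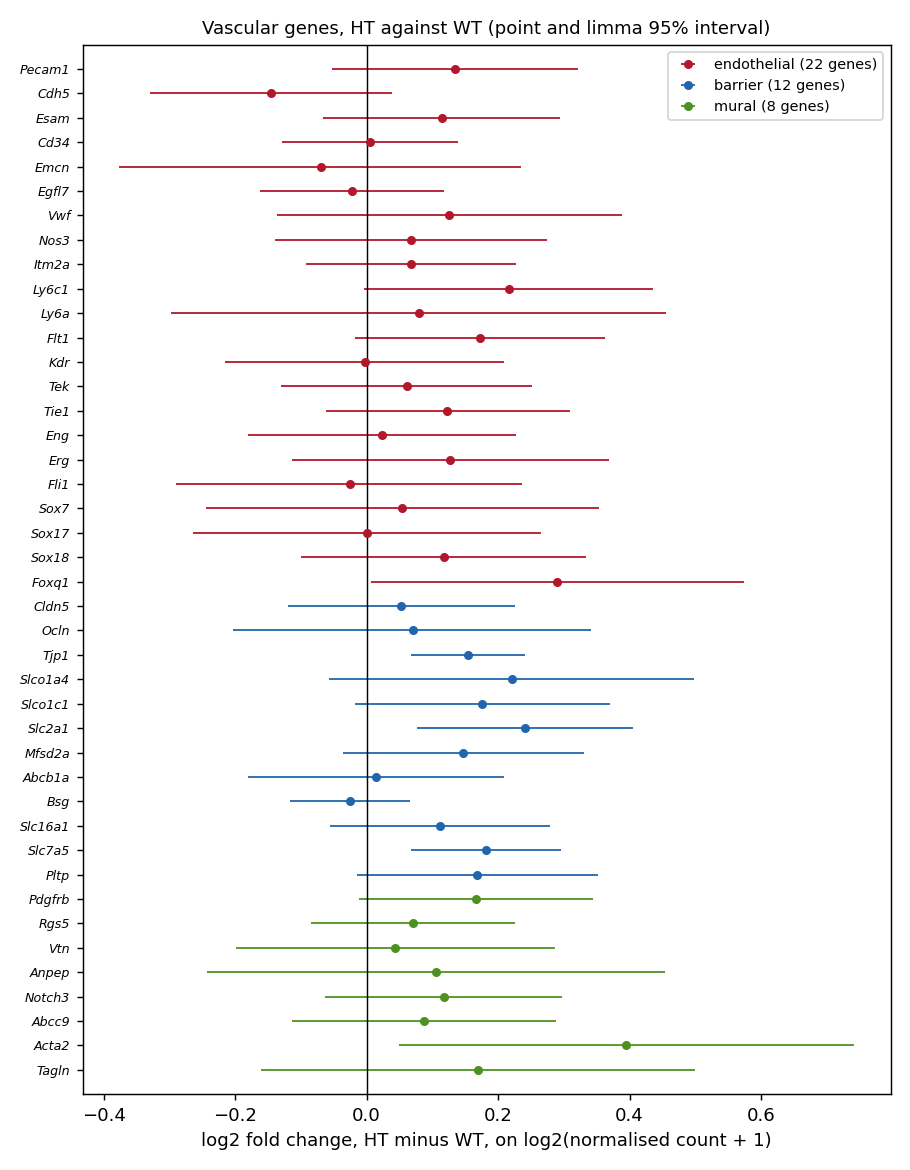
Log2 fold change (HT minus WT, log2 of normalised count + 1, x axis) of each of the 42 genes (y axis), with points for the estimate and lines for the 95% interval of limma, coloured by endothelial (22), barrier (12) and mural (8) genes. Of the 42 points, 36 lie right of 0, and the intervals of Foxq1, Tjp1, Slc2a1, Slc7a5 and Acta2 do not include 0.

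Among the 11 endothelial identity genes, 8 had a log2 fold change above 0, the median was 0.068, and 0 had an unadjusted p under 0.05. Pecam1, an adhesion molecule at the contacts between endothelial cells, had 743.6, 1022.9, 719.9, 915.6 and 887.3 normalised counts in HT1 to HT5 and 814.9, 793.2, 744.0, 750.5 and 773.0 in WT1 to WT5. The groups overlapped: HT2, HT4 and HT5 lay above every WT mouse and HT1 and HT3 lay below every WT mouse. Pecam1 had a log2 fold change of 0.13 (SE 0.087, adjusted p = 0.617). Ly6c1, a surface protein abundant on brain endothelium, had the highest log2 fold change of these genes, 0.22 (SE 0.102, unadjusted p = 0.0542, adjusted p = 0.546). Its values were 422.8, 529.8, 393.3, 426.3 and 458.7 in HT1 to HT5 and 340.7, 384.8, 434.1, 327.4 and 437.0 in WT1 to WT5, with overlap between the groups. Ly6c1 shares 46.8% of its 31-base words with other genes, most with Ly6c2, so reads can be split between these copies and its value is uncertain. The same holds for Ly6a, with 31.9% of its words shared, most with Ly6c1.

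Cdh5 (VE-cadherin, chr8:104101625-104144511, plus strand), the cadherin of endothelial adherens junctions, had the lowest log2 fold change of the 42 members. Its normalised counts were 651.1, 912.4, 683.6, 799.8 and 796.9 in HT1 to HT5, with a mean of 768.8 ± 104.3 (SD, n = 5), and 869.9, 788.7, 875.6, 790.5 and 902.0 in WT1 to WT5, with a mean of 845.3 ± 52.3. HT2 was the highest of the 10 mice and HT1 and HT3 were the lowest, so the groups overlapped. The log2 fold change was -0.145 (SE 0.086, 95% interval -0.329 to 0.039, unadjusted p = 0.113, adjusted p = 0.596), and without HT2 it was -0.21 (unadjusted p = 0.0161, adjusted p = 0.638). Pecam1 and Cdh5 followed each other from mouse to mouse, with a Pearson r of 0.86 over the 10 mice after the mean of each genotype was taken out. The ratio of Cdh5 to Pecam1 was 0.876, 0.892, 0.95, 0.874 and 0.898 in HT1 to HT5, with a mean of 0.898 ± 0.0308, and 1.07, 0.994, 1.18, 1.05 and 1.17 in WT1 to WT5, with a mean of 1.09 ± 0.0781. The ratio was thus lower in each of the 5 HT mice, HT2 included, than in each WT mouse. It was singled out after its values were seen and is given as a description with no test. Over all 861 pairs of members, 20 ratios (2.32%) did not overlap between the genotypes, and Cdh5 was in 11 of these 20. The share over pairs of all genes tested was not computed, so these counts have no background beside them. Cdh5 had the lowest log2 fold change of the 42 members, which by itself lowers its ratios to the others in HT mice.

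The other endothelial identity genes had log2 fold changes from -0.07 (Emcn, a sialomucin of capillaries and veins) to 0.13 (Vwf, the clotting factor carrier stored in endothelial granules). Vwf ranged in HT mice from 734.4 in HT1 to 1310.7 in HT5, against 798.3 to 995.1 in WT mice. Nos3, the endothelial nitric oxide synthase, had 445.3 to 465.0 normalised counts in 4 HT mice and 637.4 in HT2, against 426.3 to 484.6 in WT mice.

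The receptor genes comprised Flt1 and Kdr, the VEGF receptors, Tek and Tie1, the angiopoietin receptor and its partner, and Eng, a co-receptor for TGF-beta family ligands. Of these 5, 4 had a log2 fold change above 0, the median was 0.061, and 0 had an unadjusted p under 0.05. Flt1, which binds VEGF tightly and signals weakly, had the highest log2 fold change, 0.17 (SE 0.088, 95% interval -0.017 to 0.363, adjusted p = 0.557). Its normalised counts were 1624.6, 2229.6, 1659.7, 2136.7 and 1805.5 in HT1 to HT5 and 1773.8, 1830.0, 1567.1, 1561.1 and 1605.1 in WT1 to WT5. HT2 and HT4 were above every WT mouse, and the other 3 HT mice lay within the WT range. Kdr, the main signalling receptor for VEGF, had the lowest, -0.003 (SE 0.099, 95% interval -0.216 to 0.209), with a sign that turned under quantile normalisation (0.005) and upper-quartile rescaling (0.003). Kdr ranged from 1447.9 (HT1) to 2076.0 (HT2) in HT mice and from 1493.3 to 1835.8 in WT mice.

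Promoter sequences were read for the members from RefSeq windows on GRCm38.p6 that run from 250 bases before to 50 bases after an annotated start, and 27 of the 42 members had a window, 33 windows in all. ETS proteins, a family that includes the members Erg and Fli1, bind a core of GGAA, so AGGAAG and CGGAAG were searched on both strands. These words share their last 5 letters and cannot match at the same place on a strand. AGGAAG was found in 13 of the 33 member windows (12 members), against 35.4% of all 32851 windows, and CGGAAG in 2 (Tie1 and Tjp1), against 16.9%. A match is a description of the letters, not a binding site. The windows of the receptor genes Flt1 and Tie1 are shown as examples of endothelial receptors that hold AGGAAG on 1 or the other strand; Eng, not shown, holds it too. They are written 5′ to 3′ on the strand of the gene, with matches in capitals, and a match on the opposite strand reads CTTCCT or CTTCCG.
Flt1 (chr5:147725962-147726261, minus strand): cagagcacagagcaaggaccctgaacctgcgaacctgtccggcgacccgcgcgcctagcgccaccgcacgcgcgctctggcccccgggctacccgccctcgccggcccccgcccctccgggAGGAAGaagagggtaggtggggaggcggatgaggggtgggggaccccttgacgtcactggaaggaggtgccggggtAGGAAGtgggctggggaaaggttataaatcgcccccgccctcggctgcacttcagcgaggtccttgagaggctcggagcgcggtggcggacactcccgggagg
Tie1 (chr4:118489800-118490099, minus strand): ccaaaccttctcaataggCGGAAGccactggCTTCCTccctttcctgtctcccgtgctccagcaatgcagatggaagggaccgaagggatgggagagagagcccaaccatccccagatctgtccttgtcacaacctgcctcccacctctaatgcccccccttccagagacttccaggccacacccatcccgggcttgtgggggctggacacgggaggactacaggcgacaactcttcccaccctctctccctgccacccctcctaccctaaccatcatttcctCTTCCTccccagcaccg

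The 6 endothelial transcription factors were Erg and Fli1 of the ETS family, Sox7, Sox17 and Sox18 of the SoxF group, which take part in endothelial identity and arterial fate, and Foxq1, a forkhead factor enriched in brain endothelium. Of the 6, 5 were above 0 on this scale, with a median of 0.086. Foxq1 (chr13:31556134-31560976, plus strand) had 177.4, 301.4, 197.2, 218.8 and 269.9 normalised counts in HT1 to HT5, with a mean of 232.9 ± 51.5, and 185.1, 194.4, 174.2, 197.7 and 183.2 in WT1 to WT5, with a mean of 186.9 ± 9.35. The WT values lay close together, HT1 and HT3 fell among them, and HT2 and HT5 were far above them. Its log2 fold change was 0.29 (SE 0.132, 95% interval 0.006 to 0.574, unadjusted p = 0.0461, adjusted p = 0.531), and 0.19 without HT2 (unadjusted p = 0.132). An unadjusted p under 0.05 was found for Foxq1 in 11 of 24 fits, the reported one and 23 alternatives to it. Erg had a log2 fold change of 0.13 (SE 0.112) and Fli1 of -0.026 (SE 0.123), with adjusted p-values of 0.712 and 0.952. The 3 SoxF genes ranged from 0.001 (Sox17) to 0.12 (Sox18).

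**Figure D2:**
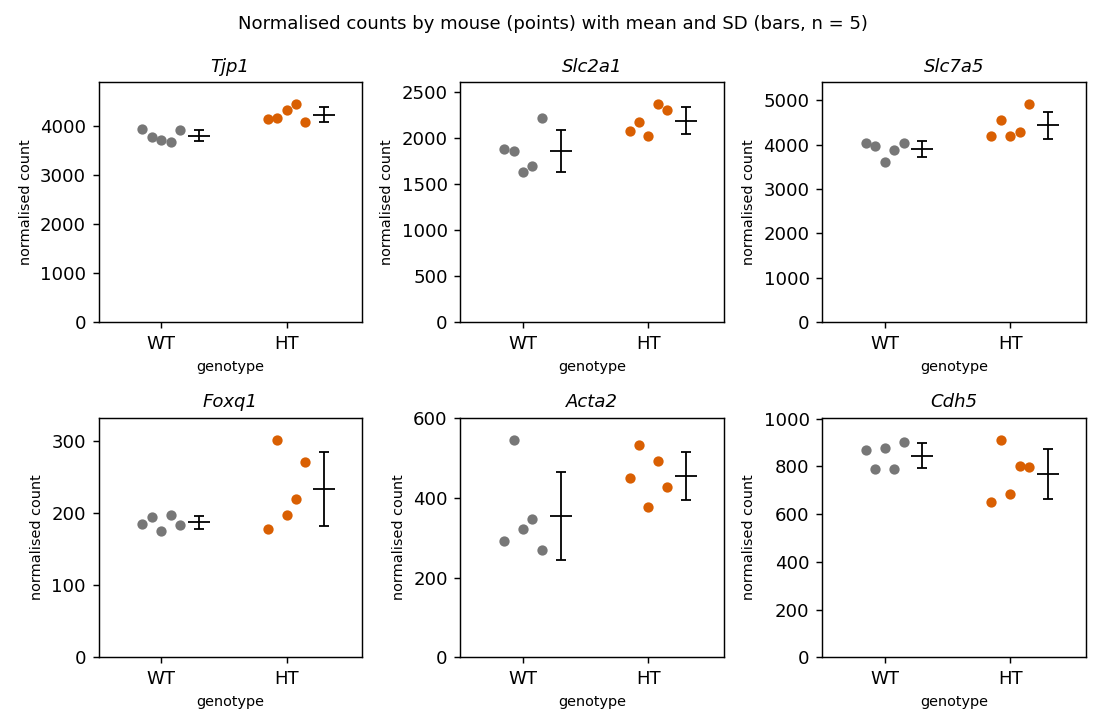
Normalised counts (y axis, from 0) of Tjp1, Slc2a1, Slc7a5, Foxq1, Acta2 and Cdh5 in each WT and HT mouse (points), with the mean and SD of the 5 mice per genotype (bars). The HT and WT points do not overlap for Tjp1 and Slc7a5 and overlap for the other 4 genes, with 1 WT mouse at 545.7 for Acta2 and HT2 at 301.4 for Foxq1.

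The tight junction genes had log2 fold changes of 0.053 (Cldn5), 0.07 (Ocln) and 0.15 (Tjp1). Tjp1 (ZO-1, chr7:65296165-65527781, minus strand) encodes the scaffold that ties junction proteins to the actin skeleton, in epithelia and other cells as well as endothelium. It had 4152.7, 4176.6, 4330.1, 4454.1 and 4078.9 normalised counts in HT1 to HT5, with a mean of 4238.5 ± 151.3, and 3937.5, 3776.3, 3728.4, 3683.9 and 3918.2 in WT1 to WT5, with a mean of 3808.9 ± 113.6. Each HT value was above each WT value, with means in a ratio of 111.3%. Tjp1 thus had a log2 fold change of 0.15 (SE 0.04, 95% interval 0.067 to 0.241, unadjusted p = 0.00198, adjusted p = 0.414). Its unadjusted p was under 0.05 in each of the 24 fits, where the log2 fold change lay between 0.136 and 0.182. The fits reuse the same libraries, so a count of fits is not independent support for this or any other gene. Cldn5, the main sealing claudin of brain endothelium, had 1553.1, 2071.3, 1424.6, 1631.5 and 1587.8 in HT1 to HT5 and 1615.7, 1593.2, 1492.4, 1585.1 and 1624.6 in WT1 to WT5. For Cldn5, HT2 was the highest and HT3 the lowest of the 10 mice, and the log2 fold change of 0.053 (SE 0.08, 95% interval -0.12 to 0.225, adjusted p = 0.845) became -0.031 without HT2. Ocln, a further strand protein of tight junctions, ranged from 210.6 to 345.3 in HT mice and from 261.3 to 326.5 in WT mice.

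Among the 9 barrier transport genes, 8 had a log2 fold change above 0, the median was 0.17, and 2 had an unadjusted p under 0.05. Slc2a1 (GLUT1, chr4:119108711-119137983, plus strand), the glucose transporter of brain endothelium and astrocytes, had 2077.7, 2178.1, 2028.1, 2372.3 and 2305.4 normalised counts in HT1 to HT5, with a mean of 2192.3 ± 146.2, and 1883.8, 1861.2, 1638.6, 1702.2 and 2226.4 in WT1 to WT5, with a mean of 1862.4 ± 228.4. The 5 HT mice lay above 4 of the 5 WT mice, and WT5 was above 3 HT mice. Slc2a1 had a log2 fold change of 0.24 (SE 0.076, 95% interval 0.077 to 0.405, unadjusted p = 0.0071, adjusted p = 0.473). Slc7a5 (LAT1, chr8:121881150-121907694, minus strand), which carries large neutral amino acids, had 4203.9, 4562.0, 4188.1, 4288.9 and 4911.8 in HT1 to HT5, with a mean of 4431.0 ± 307.8, and 4027.3, 3972.1, 3597.6, 3887.0 and 4030.6 in WT1 to WT5, with a mean of 3902.9 ± 180.3. The lowest HT mouse, HT3, was above the highest WT mouse, WT5. Its log2 fold change was 0.18 (SE 0.053, 95% interval 0.068 to 0.295, unadjusted p = 0.00411, adjusted p = 0.438). For both transporters the unadjusted p was under 0.05 in 23 of 24 fits. The exception was the fit with a score of 8 astrocyte markers as a covariate, with log2 fold changes of 0.105 for Slc2a1 (unadjusted p = 0.261) and 0.06 for Slc7a5 (unadjusted p = 0.268).

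Mfsd2a, the lysolipid carrier that also restrains vesicle traffic in brain endothelium, had a log2 fold change of 0.15 (SE 0.085, adjusted p = 0.591), with 1357.8 to 1724.6 normalised counts in HT mice and 1099.9 to 1496.5 in WT mice. Bsg, the partner that brings monocarboxylate transporters to the membrane, had the lowest log2 fold change of the transport genes, -0.026 (SE 0.043, 95% interval -0.117 to 0.066), with a sign that turned under quantile normalisation (0.028). The lactate carrier Slc16a1, the phospholipid transfer protein Pltp, the organic anion carriers Slco1a4 and Slco1c1 and the drug efflux pump Abcb1a lay between 0.015 (Abcb1a) and 0.22 (Slco1a4). Slco1a4 reached 1278.6 in HT2 and 747.6 to 995.6 in the other HT mice, against 704.4 to 920.7 in WT mice. Abcb1a shares 23.3% of its 31-base words with other genes, most with Abcb1b, and its value is uncertain to that extent.

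The promoter windows of Tjp1 and Slc2a1 are shown because these members had an unadjusted p under 0.05 in at least 23 of 24 fits and a window in the table. Both hold ACGTG, the core of the hypoxia response element and part of some E-boxes, which was found on either strand in 6 of the 33 member windows, those of Slc16a1, Slc2a1, Mfsd2a, Slco1c1, Tjp1 and Notch3, a share near the 19.6% of all windows. The windows of Tjp1 and Slc2a1 belong to RefSeq starts inside the gene spans given above, not to the outermost starts. The same holds for the window of Tie1, whose gene spans chr4:118471191-118490061. Capitals mark ACGTG or its reverse CACGT, and in Tjp1 also CTTCCG, the reverse of CGGAAG.
Tjp1 (chr7:65371195-65371494, minus strand): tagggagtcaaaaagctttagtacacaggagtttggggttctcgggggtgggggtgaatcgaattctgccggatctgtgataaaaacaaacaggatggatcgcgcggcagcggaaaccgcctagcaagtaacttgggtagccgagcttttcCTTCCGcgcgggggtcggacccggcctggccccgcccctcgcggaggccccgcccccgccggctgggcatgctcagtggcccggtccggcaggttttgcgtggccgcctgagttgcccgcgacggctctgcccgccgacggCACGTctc
Slc2a1 (chr4:119108495-119108794, plus strand): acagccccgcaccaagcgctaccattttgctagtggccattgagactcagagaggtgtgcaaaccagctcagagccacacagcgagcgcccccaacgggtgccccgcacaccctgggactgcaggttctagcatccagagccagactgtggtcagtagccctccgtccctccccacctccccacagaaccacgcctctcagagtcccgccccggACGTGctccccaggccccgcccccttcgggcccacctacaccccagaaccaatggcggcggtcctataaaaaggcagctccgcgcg

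The 8 mural genes had log2 fold changes above 0, with a median of 0.11. The 6 pericyte genes lay between 0.043 (Vtn, vitronectin) and 0.17 (Pdgfrb), and 0 had an unadjusted p under 0.05. Pdgfrb, the receptor by which pericytes are recruited to vessels, had 1021.9, 1406.4, 1107.7, 1219.3 and 1267.3 normalised counts in HT1 to HT5 and 1169.4, 1113.1, 974.6, 1103.9 and 988.5 in WT1 to WT5. HT2, HT4 and HT5 were above every WT mouse, and HT1 and HT3 were not. Its log2 fold change was 0.17 (SE 0.083, 95% interval -0.012 to 0.344, adjusted p = 0.552). Vtn, secreted by pericytes, spanned 1249.2 to 2152.0 in HT mice and 1610.6 to 1710.5 in WT mice, and its log2 fold change of 0.043 (SE 0.113) became -0.042 without HT2. Rgs5, a regulator of G-protein signalling, Anpep, the surface peptidase CD13, Notch3, a receptor needed for mural cell maturation, and Abcc9, a subunit of a potassium channel, lay between 0.071 and 0.12.

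Acta2 (chr19:34241090-34255590, minus strand), the contractile actin of smooth muscle, had the highest log2 fold change of the 42 members. Its normalised counts were 450.3, 532.0, 376.8, 493.0 and 425.6 in HT1 to HT5, with a mean of 455.5 ± 60.0, and 292.0, 545.7, 321.9, 346.4 and 270.0 in WT1 to WT5, with a mean of 355.2 ± 110.4. WT2 was the highest of the 10 mice, and the other 4 WT mice lay below every HT mouse. The log2 fold change was 0.395 (SE 0.161, 95% interval 0.049 to 0.741, unadjusted p = 0.0283, adjusted p = 0.51), and without WT2 it was 0.561 with an adjusted p of 0.355. An unadjusted p under 0.05 was found in 13 of 24 fits. Tagln, an actin-binding protein of the same cells, was also high in WT2, with 272.0 there, 139.4 to 185.5 in the other WT mice and 178.0 to 233.1 in HT mice. Tagln had a log2 fold change of 0.17 (SE 0.153, adjusted p = 0.718).

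**Figure D3:**
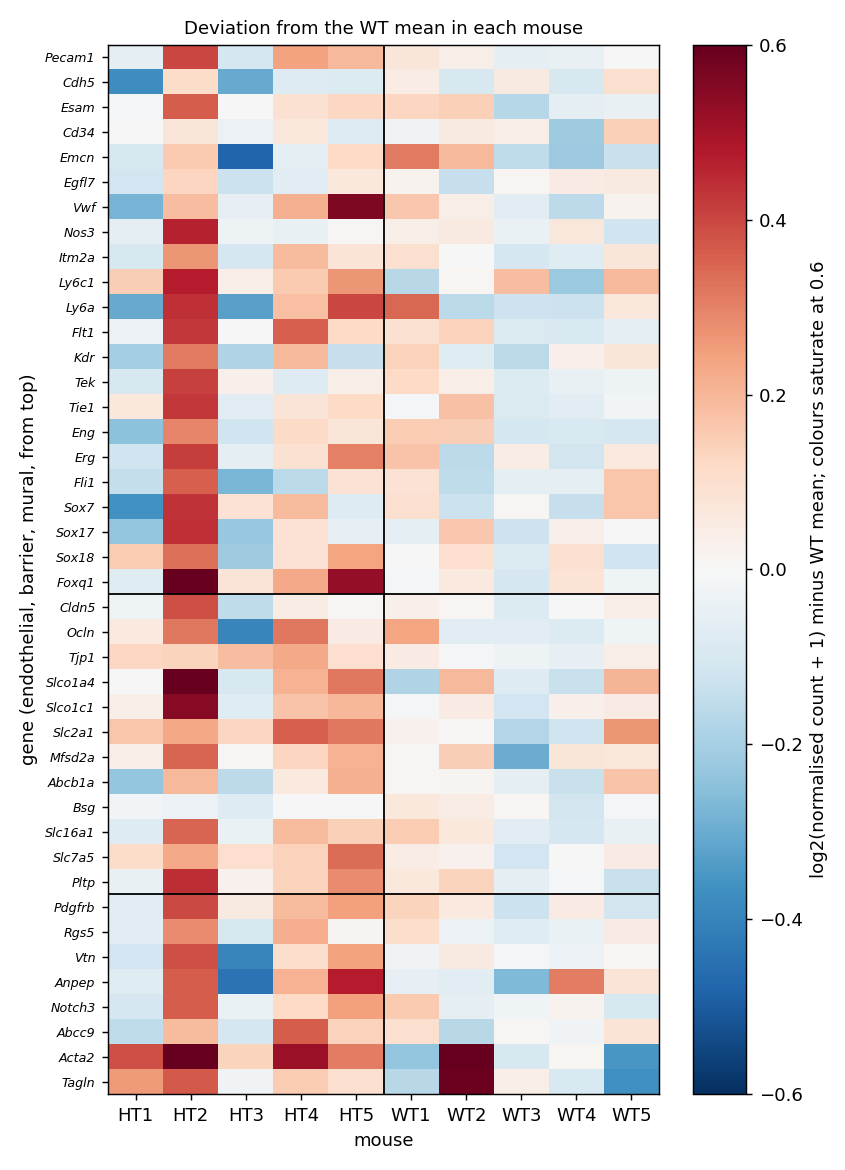
Deviation of log2(normalised count + 1) from the WT mean (colour scale, saturating at 0.6) for each of the 42 genes (rows, endothelial, barrier and mural from the top) in each HT and WT mouse (columns). The column of HT2 is red in nearly every row, whereas HT1 and HT3 are blue in most endothelial rows, and Acta2 and Tagln are also high in WT2.

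HT mice differed more among themselves than WT mice did. HT2 had the highest value of the 10 mice in 30 of the 42 members (71.4%), with 19 of 22 endothelial, 7 of 12 barrier and 4 of 8 mural genes, against 17.1% of all genes. HT3 had the lowest value in 11 members (26.2%) and HT1 in 9 (21.4%), against 7.86% and 7.91% of all genes. As the median over the 42 members of the log2 deviation from the WT mean, HT2 was at 0.36, HT4 at 0.15, HT5 at 0.13, and HT1 and HT3 each at -0.07, while WT1 to WT5 lay between -0.08 and 0.06. Thus 3 HT mice were above every WT mouse and the other two lay at the lower end of the WT mice. The SD on the log2 scale was larger in HT than in WT mice for 35 of 42 members (83.3%), against 59.1% of all genes, with a median SD of 0.203 in HT and 0.107 in WT mice. Without HT2 it was larger in HT mice for 31 of 42 members (73.8%), against 48.0% of all genes. Without HT2 the median log2 fold change was -0.011 for the 22 endothelial genes, 0.09 for the 12 barrier genes and 0.059 for the 8 mural genes, against 0.068, 0.15 and 0.11 with all mice.

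**Figure D4:**
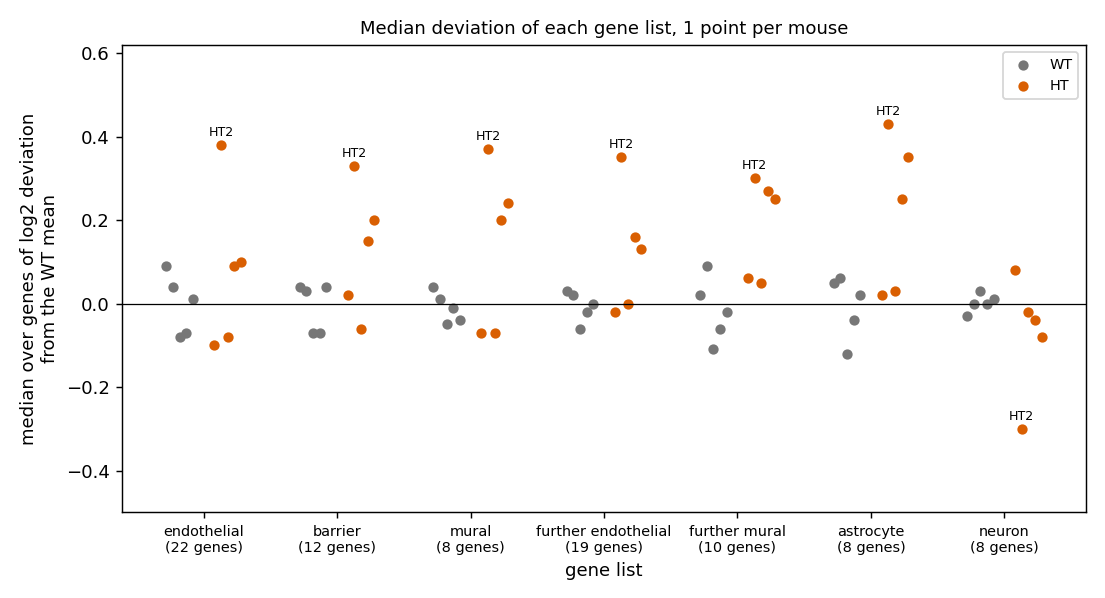
Median over the genes of a list of the log2 deviation from the WT mean (y axis), 1 point per mouse, for the endothelial, barrier and mural members and for lists of further endothelial, further mural, astrocyte and neuron markers (x axis). HT2 is the highest point in the first 6 lists, at 0.38 for endothelial, 0.33 for barrier and 0.37 for mural members, and the lowest point for neuron markers, at -0.3.

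The members moved together from mouse to mouse. With the mean of each genotype taken out, the median Pearson r over the 861 pairs of members was 0.59 across the 10 mice, with 0.63 within endothelial, 0.51 within barrier and 0.55 within mural genes, and 0.6 between endothelial and mural genes. The median r of members with all other genes tested was -0.02. These values describe 10 libraries that the genes share, and they fell to 0.45 over members without HT2 and to 0.42 without HT2 and HT5. Pecam1 followed the other 41 members most closely, with a median r of 0.80, followed by the lactate carrier Slc16a1 (0.76) and the thyroid hormone carrier Slco1c1 (0.75). At the other end were Tjp1 (-0.03), Tagln (0.21), Acta2 (0.22), Cd34 (0.23), Bsg (0.26), Ly6c1 (0.34) and Slc2a1 (0.36). Without HT2 and HT5, Pecam1 was still the highest at 0.65, Slc16a1 was at 0.57, and Ly6c1 (-0.02), Tagln (0.03) and Acta2 (0.18) stayed low, but other places in the order moved. Foxq1, at 0.74 with all mice, was at 0.51 without HT2 and 0.42 without HT2 and HT5, where Tjp1 was at 0.49 and Slc2a1 at 0.46.

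**Figure D5:**
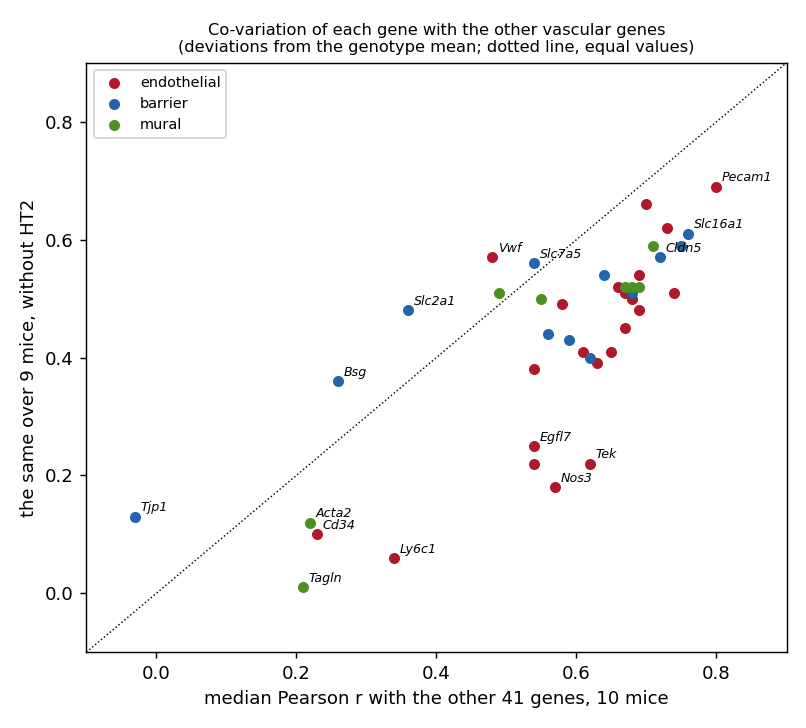
Median Pearson r of each gene with the other 41 vascular genes, after the mean of each genotype was taken out, over 10 mice (x axis) and over 9 mice without HT2 (y axis), coloured by endothelial, barrier and mural genes, with a dotted line of equal values. Pecam1 lies highest at 0.80 on the x axis and 0.69 on the y axis, Tjp1 lies lowest on the x axis at -0.03, and Nos3 and Tek lie far below the line.

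Markers of several other cell types also varied between mice. The 8 astrocyte markers had log2 fold changes above 0 in 8 of 8 genes, with a median of 0.23, 6 with an unadjusted p under 0.05 (4.71% of all genes were higher at that p) and 0 past the adjusted threshold (smallest adjusted p = 0.477). They summed to 156747 to 199496 normalised counts in HT mice and 142773 to 168694 in WT mice, highest in HT2. Most of these sums came from Slc1a2, with means of 119616.6 in HT and 109387.4 in WT mice. Gfap was at 13936.4 in HT5, 3571.8 to 5006.7 in the other HT mice and 3071.5 to 3458.4 in WT mice. The 8 microglia markers summed to 10080 to 14115 in HT and 9861 to 11365 in WT mice, also highest in HT2, with log2 fold changes above 0 in 8 of 8 genes, a median of 0.16 and 2 with an unadjusted p under 0.05. The 8 markers of the oligodendrocyte lineage were likewise above 0 in 8 of 8 genes, with a median of 0.22 and 0 with an unadjusted p under 0.05, and summed to 62457 to 85032 in HT and 36751 to 87725 in WT mice. The 8 neuron markers summed to 136377 to 183140 in HT and 163219 to 186345 in WT mice, lowest in HT2. Their log2 fold changes were above 0 in 3 of 8 genes, with a median of -0.056. Tubb3 was lower at an unadjusted p under 0.05, as were 4.52% of all genes. The median r of the members was 0.57 with astrocyte, 0.56 with microglia and -0.45 with neuron markers. Without HT2 these were 0.5, 0.39 and -0.24, and without HT2 and HT5 they were 0.47, 0.31 and -0.18. Markers of the meninges and perivascular fibroblasts, which could enter the dissection with large vessels, summed to 7153 to 11074 in HT and 8665 to 10253 in WT mice, with a median log2 fold change of 0.011 over 11 genes and a median r of 0.5 with the members (0.48 without HT2). Of these 11 genes 6 were above 0, and Foxc1 was higher at an unadjusted p under 0.05. Perivascular macrophage markers had a median log2 fold change of -0.053 over 7 genes and summed to 428 to 929 in HT and 521 to 775 in WT mice. Of these 7 genes 3 were above 0, and 0 had an unadjusted p under 0.05. Red blood cell genes, of which 6 of 8 were in the table, summed to 6431 to 9385 in HT and 7034 to 11320 in WT mice and had a median log2 fold change of -0.257, with a median r of 0.46 with the members (0.28 without HT2). Of these 6 genes 1 was above 0, and Hbb-bs was lower at an unadjusted p under 0.05. No gene in the table from these 7 lists was at 0 in any mouse. With the astrocyte score as a covariate, the number of members with a log2 fold change above 0 was 6 of 42, 1 member was higher (Tjp1, 0.157, unadjusted p = 0.0126) and 6 were lower at an unadjusted p under 0.05. Over all genes in that fit 50.2% were above 0, 2.18% were higher and 2.57% lower. The part of meningeal tissue, microglia, oligodendrocytes, blood and RNA quality in the vascular values was not tested.

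Most of the further vascular markers outside the 42 also had a log2 fold change above 0. Of 20 further endothelial markers 19 were tested, 15 had a log2 fold change above 0, the median was 0.13, and 6 were higher at an unadjusted p under 0.05 (Lsr, Ptprb, Podxl, Cgnl1, Adgrl4 and Ecscr) and 0 lower, against 4.71% and 4.52% of all genes, while 0 passed the adjusted threshold (smallest adjusted p = 0.456). HT2 was the highest of the 10 mice in 14 of these 19. Of 10 further mural markers 9 were above 0, the median was 0.19, and 0 passed the adjusted threshold (smallest adjusted p = 0.51). At an unadjusted p under 0.05, 3 were higher, the smooth muscle genes Cnn1 and Myh11 and the proteoglycan gene Cspg4. Cspg4 is not restricted to pericytes, so its value in whole tissue is not a mural value alone. HT2 was the highest of the 10 mice in 3 of these 10 genes, and so was HT5. The median r with the members was 0.54 for further endothelial and 0.3 for further mural markers. With a score of the 19 further endothelial markers as a covariate, 14 of the 42 members had a log2 fold change above 0. Under that fit 3 members were higher at an unadjusted p under 0.05, Tjp1 (0.151, unadjusted p = 0.00427), Slc2a1 (0.182, unadjusted p = 0.0443) and Slc7a5 (0.133, unadjusted p = 0.0245), and 2 were lower, Cdh5 (-0.273, unadjusted p = 0.00132, adjusted p = 0.666) and Sox17. Over all genes in that fit 49.8% were above 0, 2.98% were higher and 2.94% lower. The score itself was not independent of genotype, so part of any genotype difference is taken out with it, and some of its genes, such as Spock2 and Tfrc, are also transcribed in other brain cells.

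Along the vessel tree, 9 of 12 arterial genes had a log2 fold change above 0, with a median of 0.14, and 3 were higher at an unadjusted p under 0.05 (Sema3g, Gkn3 and Mgp). Of 7 venous genes 3 were above 0, the median was -0.028, Vcam1 was higher and Flrt2 lower at an unadjusted p under 0.05. WT means were 1601.8 normalised counts for Vcam1 and 3393.8 for Flrt2, against 775.1 for Pecam1. Neither gene is restricted to vessels, so their values in whole tissue are not values of veins alone. Of 8 capillary genes 6 were above 0 and the median was 0.1, and of 5 tested tip cell genes, which mark sprouting ends, 4 were above 0 with a median of 0.077. These lists overlap with those above: 4 of the 8 capillary genes are members (Mfsd2a, Slc16a1, Slc7a5 and Slco1a4) and 3 are among the further endothelial markers, and Sox17 and Vwf are members in the arterial and venous lists. No gene of the 4 lists passed the adjusted threshold (smallest adjusted p of 0.513 for arterial, 0.494 for venous and 0.438 for capillary genes), and over all genes 48.8% were above 0 and 4.71% higher at an unadjusted p under 0.05. The difference between these zones was not tested.

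Of 42 genes of the pathways that build and signal to vessels, 27 had a log2 fold change above 0, the median was 0.068, and 3 were higher and 0 lower at an unadjusted p under 0.05, with 0 past the adjusted threshold. Over all genes tested 48.8% were above 0, 4.71% were higher and 4.52% lower at that p, so 3 of 42 is close to the background. The VEGF ligands and neuropilins had a median of 0.024 over 7 genes and the angiopoietins and Pdgfb of -0.07 over 3 genes. Vegfa, the ligand of Flt1 and Kdr, was at 0.075, and Pdgfb, the endothelial ligand of Pdgfrb, at -0.099. The 13 genes of Wnt signalling to the barrier had a median of 0.073, with values from -0.056 for the ligand Wnt7b to 0.24 for Lrp5, a Wnt co-receptor. Lrp5 had 345.2, 469.8, 373.8, 418.2 and 454.6 normalised counts in HT1 to HT5 and 401.1, 343.9, 304.7, 360.7 and 333.8 in WT1 to WT5 (log2 fold change 0.24, SE 0.099, unadjusted p = 0.0321, adjusted p = 0.511). HT2, HT4 and HT5 were above every WT mouse. The 6 Notch genes had a median of 0.1, and the 5 genes of TGF-beta and BMP signalling of 0.14.

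Robo4, an endothelial receptor of the Roundabout family that stabilises vessels, had 308.7, 393.8, 328.1, 420.7 and 418.3 normalised counts in HT1 to HT5 and 324.3, 299.1, 278.1, 321.0 and 300.9 in WT1 to WT5. All HT mice except HT1 were above every WT mouse, and the log2 fold change was 0.285 (SE 0.097, unadjusted p = 0.0113, adjusted p = 0.477). S1pr1, the sphingosine-1-phosphate receptor of endothelium and astrocytes, had 3325.6, 4392.5, 2999.2, 3594.2 and 3613.2 in HT1 to HT5 and 3190.9, 3264.3, 2857.2, 2886.5 and 3178.2 in WT1 to WT5. All HT mice except HT3 were above every WT mouse, and the log2 fold change was 0.21 (SE 0.083, unadjusted p = 0.0234, adjusted p = 0.504).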

How the data were processed

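RNA was measured in 10 libraries, 5 HT and 5 WT mice, grouped by sample title. The authors prepared poly-A libraries with a stranded kit, quantified transcripts with Salmon 1.1.0 on GRCm38 with GC-bias correction, summed them to genes with tximport and divided them by DESeq2 1.30.1 size factors. The deposited values are thus a normalised signal per gene and not whole reads: at most 13.1% to 36.3% of low values per library were whole multiples of a step (tolerance 0.05), so depth is unknown and no count test was run. Size factors hide a change in total RNA per cell, and Salmon splits reads between similar genes by a model. No gene had a row total under 41.7, so a filter that is not stated in the sources used here had been applied. Sequencing batches are not given there either.

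Symbols, positions and exonic lengths came from GENCODE M21. Values were transformed as log2(value + 1), which understates changes of low genes. Genes with a mean of at least 10 (16781, all 42 members included) entered a limma fit (version 3.58.1, R 4.3.3; lmFit and eBayes with trend, genotype as sole factor), with Benjamini-Hochberg adjustment over all of them, after tests on simulated data. Each library is 1 mouse, so p-values measure the spread between mice. The members and lists were chosen with earlier results of these data known. Named were Arid1b, 9 anchor genes, members with an unadjusted p under 0.05 or no overlap, the highest and lowest of each of 7 role lists, and pathway genes with an unadjusted p under 0.05; other members were named as examples by range. Alternatives were pseudocounts, filters, scalings, no trend, sample weights, a replicate block, a striatal covariate, each mouse left out, and HT2 with HT5 left out. The endothelial and astrocyte covariates were added after the data were seen. Promoter windows came from RefSeq.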

Additional observations from a re-analysis of the deposited data

Results flagged for a closer look

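In 6 of the 92 groups of 5 mice examined, 1 mouse lay far from the other 4, by a gap over 0.71 of the range of the group, and chance gives 4.6 such groups. For the nitric oxide synthase Nos3, HT2 had 637.4 normalised counts and the other HT mice 445.3 to 465.0. For the angiopoietin receptor Tek, HT2 had 809.8 and the other HT mice 570.5 to 624.8. WT2 stood apart for 3 genes, with 706.3 for Egfl7 (the other WT mice 783.8 to 807.7), 689.3 for Tie1 (574.1 to 605.5) and 545.7 for Acta2 (270.0 to 346.4). For the tight junction gene Ocln, WT1 had 326.5 and the other WT mice 261.3 to 272.5.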

How the results depend on the processing

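The number of members past the adjusted threshold was 0, and that of all genes 3 or 4, in each of the 23 alternatives. Members higher in HT at an unadjusted p under 0.05 numbered 5, and 3 without a variance trend, with sample weights, without HT2 and HT5 and with the endothelial covariate, 1 with the astrocyte covariate, and 3 to 13 with 1 mouse left out. Members lower numbered 0, and 1 with sample weights and without HT2 and HT5, 2 and 6 with the endothelial and astrocyte covariates, and 0 to 1 with 1 mouse left out. The replicate numbers belong to different mice, and same-numbered mice did not deviate together (r from -0.041 to 0.101). With the replicate block 10 members were higher, against 4.79% of all genes. In the other fits named for these counts, 2.18% to 5.74% of all genes were higher and 2.57% to 5.33% lower. The endothelial median of 0.068 became 0.002 with sample weights, -0.033 without HT2 and HT5, -0.056 with the endothelial and -0.114 with the astrocyte covariate, and -0.011 to 0.108 with 1 mouse left out. With these covariates the barrier median of 0.15 became 0.008 and -0.056, and the mural median of 0.111 became -0.009 and -0.069. Of the 42 members, 36 had a log2 fold change above 0, and 27 with sample weights, 21 without HT2 and HT5, 14 with the endothelial and 6 with the astrocyte covariate. Given here are the turned signs of the 22 genes named by rule; other members turned as well and stand in these counts alone. Without HT2 and HT5, Cldn5 was at -0.044, Erg at -0.028 and Vtn at -0.137. With sample weights, Cldn5 was at -0.001 and Vtn at -0.035. With the endothelial covariate, Cldn5 was at -0.081, Erg and Pecam1 at -0.014 and Vtn at -0.144. With the astrocyte covariate, Cldn5 was at -0.116, Erg at -0.115, Flt1 at -0.021, Foxq1 at -0.034, Mfsd2a at -0.05, Pdgfrb at -0.028, Pecam1 at -0.088, S1pr1 at -0.008 and Vtn at -0.265. Quantile normalisation gave 0.028 for Bsg and 0.005 for Kdr, upper-quartile rescaling 0.003 for Kdr, and the striatal covariate 0.019 for Fli1. With 1 mouse left out, Cldn5 ranged from -0.031 to 0.103, Fli1 from -0.123 to 0.036, Kdr from -0.083 to 0.047 and Vtn from -0.042 to 0.154. Both covariates differ between the genotypes and so take out part of the genotype difference; otherwise the cause was not tested. Depth is unknown and sets no limit that can be stated.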
